A study of Homo sapiens with 8 samples.

Results

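KLF5 was covered by 10 of the 86180 guides of the series, 4 of 77441 in the genome-wide Brunello library and 6 of 8739 in a library aimed at DNA-binding domains of human transcription factors (TFs). These guides were taken by gene name, from the gene column of the genome-wide table and from the guide names of both TF-focused tables. All 10 passed the filter on low counts in each table that held them. Both libraries had been carried by AsPC-1, an established human cell line from a pancreatic ductal adenocarcinoma (PDAC) that here expressed the Cas9 nuclease. Cells were collected and fixed in methanol on day 8 after infection, and after storage they were stained for Serpin B5 and sorted into a Serpin B5-low, a bulk and a Serpin B5-high population. The study used Serpin B5, the product of SERPINB5, as a reporter of KLF5 activity. The comparisons below therefore ask how cells that carry a KLF5 guide were spread over the 3 populations.

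The 8 libraries formed 8 groups of 1 library, namely low, bulk and high for the genome-wide screen, low, bulk and high for the TF-focused screen, and a separately deposited TF-focused low and bulk pair. Library totals ranged from 90421905 to 102155005 reads in the genome-wide screen, from 9122855 to 38031483 in the TF-focused screen, and were 10026967 and 30756868 in the separate pair. The labels disagreed in 2 places. The TF-focused high library is high in its title and table column but bulk in its description, and the separate pair has a genome-wide genotype label although its table holds TF-focused guides. No population had a replicate library, so no difference between populations could be tested, and no p-value is given. Errors of a gene are standard deviations (SD) over its guides. Intervals of a single guide are exact (Clopper-Pearson) 95% intervals of its read counts, which cover counting error only, since PCR reads without molecular identifiers are not independent molecules.

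KLF5 is a zinc finger transcription factor of the Krüppel-like family. It is best known from proliferating epithelia such as the gut crypt and the basal layer of stratified tissues, where it binds GC-rich promoter and enhancer elements and activates transcription with coactivators that include the p300 acetyltransferase. Members of the family share a C-terminal domain of 3 C2H2 zinc fingers, each held by a pair of cysteines and a pair of histidines around a zinc ion. A frameshift ahead of or within the fingers is expected to remove DNA binding, whereas an in-frame edit can leave a working protein, so a guide population is a mixture of outcomes.

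KLF5 lies on chromosome 13 from 73054976 to 73077541 (hg38, plus strand, GENCODE release 44). Its main transcript has 1371 coding bases, without the stop codon, in 4 exons. The finger-coding stretches are shown because the TF-focused library was built against this kind of domain. Finger 1 is split between exon 2 (chr13:73062722-73062734) and exon 3 (chr13:73063824-73063879), finger 2 lies in exon 4 at chr13:73075725-73075793, and finger 3 lies in exon 4 at chr13:73075815-73075877. Capitals mark the codons of the zinc-binding cysteines and histidines.
KLF5 finger 1: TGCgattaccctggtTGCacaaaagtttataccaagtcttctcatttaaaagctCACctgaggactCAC
KLF5 finger 2: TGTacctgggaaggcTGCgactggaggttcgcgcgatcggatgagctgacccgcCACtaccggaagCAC
KLF5 finger 3: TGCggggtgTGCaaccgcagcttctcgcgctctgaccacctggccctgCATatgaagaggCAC
The count tables hold guide names without guide sequences, so no guide was placed within these stretches. All 6 TF-focused names carry the tag E4_78, whose meaning is not given in the sources used here, and the genome-wide names sg1913 to sg1916 carry no position.

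In the genome-wide screen all 4 KLF5 guides were concentrated in the low population and were scarcest in the high population. Counts are given here after scaling each library by a median-ratio size factor, so that a guide without effect has about the same normalised count in each library. Guide sg1913 had a normalised count of 3582 in the low, 374 in the bulk and 139 in the high library. Guide sg1914 had 2762, 375 and 34.2 in the same order. For sg1915 the normalised counts were 1860, 262 and 62.0, and for sg1916 they were 3567, 562 and 379. The order low above bulk above high held for 4 of 4 guides, an order also found in 23.4% of all 76980 guides kept. The raw counts of the high library were between 32 and 354 reads, so the high population set the counting error of these ratios.

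The low versus high comparison contrasts the ends of the Serpin B5 distribution. Each ratio is log2 of the normalised counts plus 5, less the median ratio of all guides that target a gene. Guide sg1914 had the largest ratio, 6.14 (interval 5.83 to 6.89), at rank 4 of 76980 guides. Only 3 guides stood above it, all of SERPINB5. Guides sg1915 at 4.80 (4.53 to 5.31, rank 6) and sg1913 at 4.64 (4.44 to 4.95, rank 8) had overlapping intervals and did not differ beyond counting error. Guide sg1916 was the weakest at 3.22 (3.08 to 3.40) and rank 30, still a 9.31-fold difference. Above sg1916 stood 26 guides of other genes, 4 of them against SERPINB5 and the other ones against 17 further genes.

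The mean over guides, hereafter the score, was 4.70 ± 1.19 (SD, 4 guides) for low versus high, the second highest of 19113 genes. KLF5 also came second when genes were ordered by their weakest guide. All 4 guides passed a log2 ratio of 1, against 1.42% of all guides kept. None of 994 non-targeting control guides reached the weakest KLF5 guide, the highest control being at 1.18. The spread among the KLF5 guides was wide for the library, with a rank of 24 of 19113 by SD and a median SD of 0.21 over all genes.

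In low versus bulk the guides lay much closer together, at 3.24 for sg1913, 2.86 for sg1914, 2.80 for sg1915 and 2.65 for sg1916. They held ranks 5, 6, 7 and 8 of 76980, directly behind the 4 SERPINB5 guides, which ran from 4.65 to 5.39. The neighbours sg1914 (2.73 to 3.04) and sg1915 (2.64 to 3.02) had overlapping intervals, and so did sg1915 and sg1916 (2.54 to 2.79). The score was 2.89 ± 0.25, second of 19113 genes, and 4 of 4 guides passed a log2 of 1 where 0.238% of all guides did. The gene that came next, POLR2F of RNA polymerase II, scored 1.32 ± 0.45. The highest control guide was at 0.72.

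In high versus bulk the same 4 guides differed widely. Guide sg1914 was at -3.27 (interval -4.02 to -2.93, rank 4 from the lowest), sg1915 at -1.996 (rank 39), sg1913 at -1.39 (rank 153) and sg1916 at -0.56 (rank 2143). The intervals of sg1914 and sg1916 (-0.77 to -0.38) were far apart, so these guides differed beyond counting error. The score of -1.81 ± 1.14 was the fifth lowest, and its 3 guides under a log2 of -1 compare with 0.548% of all guides. Of 994 control guides 1 lay below sg1916, at -0.85, and KLF5 ranked 61st by its weakest guide. SERPINB5 guides were also uneven here, from -3.32 to -0.54, although they were tight in low versus bulk. Low versus bulk and high versus bulk share the bulk library, so their values are not independent.

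A guide's normalised counts were also weighted by the approximate fraction of cells that the methods assign to each gate, to estimate where its cells went. By this estimate 72.2% of the cells with sg1913 lay in the low gate, 67.5% with sg1914, 66.2% with sg1915 and 62.3% with sg1916. The median control guide had 19.8% of its cells there, and the highest control 31.3%. Between 26.4% and 34.4% of cells with a KLF5 guide remained in the bulk gate, against a control median of 70.4%. In the high gate the share was between 0.418% (sg1914) and 3.31% (sg1916), against a control median of 9.87%. Whether cells in the bulk gate carried an unedited or in-frame allele was not measured.

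In the TF-focused screen the 6 KLF5 guides fell into 2 kinds, 4 enriched in the low population and 2 close to the middle of all guides. The strongest, KLF5_E4_78.6, had normalised counts of 15349 in the low, 1977 in the bulk and 1388 in the high library. KLF5_E4_78.0 followed with 10104, 1330 and 1100, and KLF5_E4_78.10 with 6309, 2446 and 1779. KLF5_E4_78.11 had 3677, 682 and 1014, so its high library exceeded its bulk library. The other two guides were nearly flat, KLF5_E4_78.9 with 1972, 1616 and 1634 and KLF5_E4_78.4 with 333, 360 and 290. KLF5_E4_78.4 was also the rarest of the 6, below all 49 control guides kept in estimated total abundance, yet its low library still held 327 reads.

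In low versus high, KLF5_E4_78.6 had a ratio of 3.47 (interval 3.36 to 3.58) and KLF5_E4_78.0 one of 3.20 (3.08 to 3.33), at ranks 2 and 3 of 8723 guides. A single guide of another gene, against HOXA2, stood above them. KLF5_E4_78.11 at 1.86 (1.73 to 2.00) and KLF5_E4_78.10 at 1.83 (1.73 to 1.93) did not differ beyond counting error and held ranks 15 and 16. The ratio of KLF5_E4_78.9 was 0.27 (0.16 to 0.40, rank 2970), and 19 of 49 control guides lay at or above it. For KLF5_E4_78.4 the ratio was 0.20 (-0.08 to 0.50, rank 3367), with 22 of 49 controls at or above it. Its interval contained 0, so no enrichment was detectable for this guide at its depth.

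KLF5 nonetheless had the highest score of 1432 genes, 1.80 ± 1.39 (SD, 6 guides). Its 4 guides above a log2 of 1 compare with 4.51% of all guides in this library. The next gene, EOMES, scored 0.97 ± 0.57 over 7 guides. KLF5 was 16th by its weakest guide, and its SD ranked 19th of 1432. Control guides spread much more here than in the genome-wide screen, from -1.76 to 1.40 with an SD of 0.69 against 0.16, although the reads per guide were of the same order. In this library low versus high ratios rose with the bulk count of a guide, with a Spearman correlation of 0.34 over 8723 guides and 0.25 over 49 controls. In the genome-wide library the value was -0.06 over 76980 guides. These correlations are descriptions across guides that share libraries, and their part in the KLF5 ratios was not tested. With guides centred within 10 classes of bulk count, a choice made after seeing the data, the KLF5 score was 2.03 and still the highest.

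By a log2 of 1, low versus bulk gave the same division of the TF-focused guides. Ratios were 2.95 for KLF5_E4_78.6, 2.91 for KLF5_E4_78.0 and 2.42 for KLF5_E4_78.11, at ranks 3, 4 and 10 of 8723. KLF5_E4_78.10 was lower at 1.36 (rank 198), within the range of the controls, with 3 of 49 at or above it and the highest at 1.48. KLF5_E4_78.9 at 0.28 (rank 3176) and KLF5_E4_78.4 at -0.11 (interval -0.31 to 0.07, rank 4798) lay among the controls. The score of 1.63 ± 1.34 was the highest of 1432 genes, with 4 of 6 guides above a log2 of 1 and 8.3% of all guides above it.

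The separate pair gave KLF5 guides in the same order. KLF5_E4_78.6 was at 2.87, KLF5_E4_78.0 at 2.63, KLF5_E4_78.11 at 2.50 and KLF5_E4_78.10 at 1.31, at ranks 10, 13, 16 and 135 of 8725. KLF5_E4_78.9 at 0.22 and KLF5_E4_78.4 at 0.17 again stayed near 0, with overlapping intervals of 0.11 to 0.33 and -0.04 to 0.39. The score was 1.62 ± 1.22, again the highest, and 4 guides passed a log2 of 1 where 5.11% of all guides did. For no KLF5 guide did the ratio differ between the pairs by more than 0.29 in size, with an SD of the difference of 0.24 over the 8722 guides kept in both tables.

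The pairs cannot be read as replicates. Their ratios correlated at r = 0.97 over those 8722 guides and at r = 0.98 over 49 control guides, which target no gene, so the deviations of controls were shared between the deposits. Counts of the low libraries correlated at r = 0.98 on the log2 scale, and their difference exceeded read sampling, with a chi-square of 21.5 per degree of freedom. Whether the pair is another sort or another amplification of the same cells is not given in the sources used here.

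The high population separated the screens. In TF-focused high versus bulk, 0 of 6 KLF5 guides passed a log2 of -1, a value that 2.06% of all guides reached. The ratios were -0.49 for KLF5_E4_78.6, -0.44 for KLF5_E4_78.10, -0.29 for KLF5_E4_78.4, -0.26 for KLF5_E4_78.0, 0.03 for KLF5_E4_78.9 and 0.59 for KLF5_E4_78.11. Even the lowest had 10 of 49 controls at or below it, and the highest lay above all 49. The score was -0.14 ± 0.40, at rank 390 of 1432 (143 by the median over guides), against -1.81 ± 1.14 in the genome-wide screen. The median control guide was itself at -0.13 in the TF-focused and -0.03 in the genome-wide screen. Centred on control guides, the scores were -0.02 and -1.78. The weakest genome-wide guide, sg1916 at -0.56 (interval -0.77 to -0.38), did not differ beyond counting error from KLF5_E4_78.6 (-0.61 to -0.38) or KLF5_E4_78.10 (-0.55 to -0.34), while the other genome-wide guides lay below all 6 TF-focused guides. This comparison rests on the high library whose title and description disagree. KLF3, a repressor of the same family and the gene with the highest high versus bulk score in both screens, scored 1.01 ± 0.42 over 6 TF-focused guides and 2.43 ± 0.78 over 3 genome-wide guides. Since KLF3 is named here as the highest in both screens, its shared direction follows from that choice and is no check of the high library. Its TF-focused score was the smaller of the 2. TADA2B, a subunit of the SAGA coactivator, was at -1.81 ± 0.54 genome-wide and at 0.03 ± 0.25 over 3 TF-focused guides.

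Set side by side, the KLF5 scores of the TF-focused screen were below those of the genome-wide screen in low versus bulk, at 1.63 ± 1.34 against 2.89 ± 0.25, and in low versus high, at 1.80 ± 1.39 against 4.70 ± 1.19. In low versus bulk, 2 of the 6 TF-focused guides, at 2.95 and 2.91, lay within the genome-wide range of 2.65 to 3.24. The other guides, at 2.42, 1.36, 0.28 and -0.11, all lay below the weakest genome-wide guide. In low versus high the strongest TF-focused guide at 3.47 exceeded only the weakest genome-wide guide at 3.22. By the gate-weighted estimate, 66.8% of cells with KLF5_E4_78.6 and 66.0% with KLF5_E4_78.0 lay in the low gate, close to the genome-wide guides. The estimates were 56.0% for KLF5_E4_78.11 and 40.0% for KLF5_E4_78.10. KLF5_E4_78.9 at 23.4% and KLF5_E4_78.4 at 19.2% were near the control median of 18.1%, and the highest control reached 40.1%. Since guides, cells, sorts and depth all differed between the screens, what set these differences was not tested.

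Total abundance was estimated as the gate-weighted sum over the 3 populations, which includes the low counts and so is not independent of the ratios. Among all genome-wide guides the 4 KLF5 guides lay between the 16.3 and the 54.4 percentile, with the strongest, sg1914, at 34.4. Among the genome-wide controls they lay low, with between 6 and 59 of 994 controls below them, but the median control was itself more abundant than the median gene-targeting guide, at 2368 against 1055 normalised counts. The TF-focused KLF5 guides ran from the 1.16 percentile for KLF5_E4_78.4 to the 96.1 percentile for KLF5_E4_78.6. No library of the unselected pool was analysed here, so loss of cells with a guide before day 8 cannot be told apart from its abundance in the starting pool.

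The genes whose pattern over the populations was most like KLF5 were found by the Euclidean distance between mean log2 values in the 3 libraries of a screen, each gene centred on its own mean. In the genome-wide screen KLF5 stood at 2.53 in the low, -0.36 in the bulk and -2.17 in the high library. The nearest genes were TADA1 at a distance of 1.28, TADA2B at 1.32, POLR2F at 1.54, KRT8 at 1.66 and TAF6L at 1.68. TADA1, TADA2B and TAF6L encode subunits of the SAGA coactivator, POLR2F a subunit of RNA polymerase II and KRT8 an epithelial keratin. Each of these was less extreme than KLF5, whose distance from a flat pattern was 3.35 against 1.80 to 2.27 for them. KLF5 was also the one gene of the 6 with a clearly negative bulk value, since the others lay between -0.01 and 0.23. In the TF-focused screen KLF5 stood at 1.15, -0.51 and -0.64, and its nearest genes were the T-box factor EOMES at 0.59, FOXD4 at 0.65, ZBTB6 and POLR2D at 0.66 and the ETS factor ERG at 0.71. No gene was among the nearest 5 in both screens. The TF-focused screen scored 1432 genes against 19113 genome-wide, so a genome-wide neighbour could recur only if the smaller library covered it. TADA2B was covered there, by 3 guides, and was not among the nearest 5 of that screen. Coverage of the other neighbours was not examined in either direction. The lack of overlap was therefore not read as a measure of disagreement between the screens.

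Low versus high scores were also read for genes known to work with KLF5, to modify it or to resemble it. Of 11 coactivators and corepressors, 5 had a genome-wide low versus high score of at least 1, a level that 1.09% of all 19113 genes reached, and 1 had a score under -1, as did 0.492% of genes. Their median was 0.31 against 0.00 over all genes. TADA2B at 3.08 ± 0.75, the Mediator kinase subunit MED12 at 2.86 ± 0.88 and the acetyltransferase EP300 at 1.75 ± 0.63 were the highest. The AAA+ ATPases RUVBL1 at 1.73 ± 0.59 and RUVBL2 at 1.08 ± 0.46 completed the 5, and the corepressor scaffold SIN3A was at -2.02 ± 0.62. Several of these were picked in view of the study's hits, so their count is not independent evidence of a direction. Of 12 enzymes that act on KLF5 or its relatives 11 were measured, 3 of them above 1, with a median of 0.00. The ubiquitin ligase subunit FBXW7 scored 1.43 ± 0.57, the ligase SIAH1 2.18 ± 0.59 and the deubiquitinase BAP1 1.64 ± 0.21.

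Among 20 lineage factors of epithelial and pancreatic cells, 3 had a genome-wide low versus high score above 1 and 1 had a score below -1. Over all 19113 genes these shares were 1.09% and 0.492%. The median of the 20 factors was 0.05. SOX9 at 2.04 ± 0.66, TFAP2A at 1.96 ± 0.94 and GATA6 at 1.44 ± 1.25 were above, and the ETS factor EHF was below at -1.33 ± 0.38. Of 16 KLF relatives, beside the same shares, none scored above 1 and KLF3 alone scored below -1, at -2.76 ± 0.79. KLF4, another epithelial member of the family, scored 0.25 ± 0.23. In TF-focused low versus high, none of the 3, 18 and 16 members measured from the coactivator, lineage and KLF lists passed 1 in either direction. SOX9 was at -0.04 ± 0.80, TFAP2A at -0.09 ± 0.57 and GATA6 at -0.48 ± 1.03, not above 0 as they were genome-wide. EHF at -0.62 ± 0.81 and KLF3 at -0.66 ± 0.88 kept their sign. In that comparison KLF5 was the one gene above 1, or 0.0698% of 1432, and 2.03% of genes lay below -1.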

How the data were processed

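Per the labels, genomic DNA of the sorted cells was phenol-extracted and the guide cassettes were amplified in 1 PCR step. The authors deposited raw read counts per guide, with no normalization and 1 library per column, in 3 tables. The submitters' processing notes name MAGeCK and hg38 without a role for either, the methods name maximum likelihood estimation in MAGeCK, and the counting step is not given in the sources used here. MAGeCK was not used here. TF-focused gene names were read from guide names, since the deposited gene column differed for 124 guides.

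Each library was scaled by median-ratio size factors over all guides of its table. Guides with a mean normalised count under 30 were left out, which kept 76980 genome-wide guides, 8723 TF-focused guides and 8725 in the separate pair. Ratios were log2 of counts plus 5, less the median ratio of all guides that target a gene. Gene scores were means over at least 2 guides. Intervals came from raw counts without the pseudocount. Ranks count from the highest ratio, and from the lowest in high versus bulk. With 1 library per group no test was possible. A log2 of 1 or more counted as past the fold. The ratio calculation was tested on simulated data with known changes. Python 3.11.15, numpy 2.4.6, scipy 1.17.1, pandas 2.3.3, R 4.3.3 and edgeR 4.0.16 (TMM factors as an alternative scaling) were used.

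Named genes were KLF5, SERPINB5, the 5 genes nearest to KLF5 in each screen and up to 4 members of each of 4 gene lists. HOXA2, RUVBL1 and RUVBL2 were named after their values were seen. A result within the list of enzymes is not reported here. The members and lists were chosen with earlier results of these data known. Depth per library ranged from 9122855 to 102155005 reads, or from 1044 to 4352 reads per guide. Alternatives covered scaling, pseudocount, filter, centring, the summary over guides and the fold.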

Additional observations from a re-analysis of the deposited data

How the results depend on the processing

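Over 7 comparisons, the KLF5 score was recomputed under 12 alternative settings and a further 1 chosen after seeing the data. All 91 values lay within 1 SD over guides of the value reported, and none changed sign. By arithmetic, the median over guides and the omission of 1 guide cannot move the score by more than 1 SD. Changes of scaling were largely taken out by the centring. The count of 91 therefore overstates how far the score was tested. Low versus high ran from 4.22 to 5.19 genome-wide and from 1.47 to 2.39 TF-focused. Low versus bulk ran from 2.77 to 2.97 genome-wide, from 1.37 to 2.16 TF-focused and from 1.37 to 1.99 in the separate pair, and KLF5 held rank 2 genome-wide and rank 1 TF-focused under each of these. High versus bulk ran from -2.22 to -1.32 genome-wide, with ranks from 1 to 13, and from -0.29 to -0.02 TF-focused, with ranks from 135 without the KLF5 guide of highest ratio to 573 without that of lowest ratio. With a fold of log2 2 in place of 1, 1 guide in place of 3 passed in genome-wide high versus bulk and 2 in place of 4 in TF-focused low versus high. In all, 68 of 70 guide counts stayed within 1.5 times the reported count. That tally includes 10 counts of TF-focused high versus bulk that were 0 under each setting. It also takes 3 guides in place of 4 as unchanged, so it overstates how far the counts were tested. No paired analysis was possible because each group held 1 library and the labels give no replicate numbers. Counting error was widest where a guide had few reads, as for sg1914 with 32 reads in the genome-wide high library.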
